A study of Homo sapiens with 6 samples.

Results

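The genes of the human mitochondrial genome were examined one after another in parental LNCaP cells and in an enzalutamide-resistant derivative, LNCaP-enzaR. All rows of the deposited gene count table that lie on chromosome M were taken, which gave 37 of 35554 genes: 13 mRNAs, 2 rRNAs and 22 tRNAs. The genes were chosen by position, but with the knowledge that their summed share of the counts differed between the lines, so that share and its direction are given as a description without a test. LNCaP is an established human line whose cells came from a lymph node metastasis of prostate carcinoma, and enzalutamide is an inhibitor of androgen signaling. LNCaP-enzaR was derived, per the study's methods, from LNCaP by long exposure to the drug, with a reduced dose for maintenance. Each group held 3 flasks harvested before the cells were confluent, the labels name no added gene or further agent for either line, and they leave out whether drug was present at harvest. The study's general RNA-seq methods describe cells in multi-well plates, kept without serum and calcium before treatment. Whether that applied to these libraries is not stated there. The flasks of a group share 1 line, so resistance and any other change that arose during its selection cannot be told apart.

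The mitochondrial genome is a small circle that is transcribed from both strands into long precursors. Most mRNAs and both rRNAs are flanked by tRNAs, which are cut out at their ends to release the RNAs between them. The mRNAs encode core subunits of respiratory complexes I, III and IV and of the ATP synthase, here complex V, while all other subunits and every factor for transcription, processing and decay are encoded in the nucleus. Prostate luminal cells are known for an unusual citrate metabolism in which mitochondria take part. Libraries were made from polyadenylated RNA. Both rRNAs and the mitochondrial mRNAs other than MT-ND6 carry short poly(A) tails, whereas mature tRNAs do not. Reads on a tRNA may also come from precursors or from RNA of the opposite strand. How well poly(A) selection retained MT-ND6 was not tested.

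The density of the genome sets how reads can be assigned to genes. Genes covered 92.7% of its 16569 bases, 26 of the 36 neighbouring pairs were at most 3 bases apart, and 5 pairs overlapped. Within the mRNAs the overlaps were 46 bases between MT-ATP8 and MT-ATP6, 7 bases between MT-ND4L and MT-ND4 and 1 base between MT-ATP6 and MT-CO3. The reading frames of both longer overlaps are shown from the GRCh38 reference, plus strand, chrM:8507-8592 and chrM:10740-10786, with the shared bases in capitals, because these pairs are read from 1 mRNA each and their counts depend on where a read is assigned.
MT-ATP8 and MT-ATP6: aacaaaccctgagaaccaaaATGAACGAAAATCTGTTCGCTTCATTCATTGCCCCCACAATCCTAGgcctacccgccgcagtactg
MT-ND4L and MT-ND4: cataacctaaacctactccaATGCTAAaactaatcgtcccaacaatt

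The tRNAs that moved most and least are shown next, as the RNA-sense strand of the GRCh38 reference with the anticodon in capitals, so that the members behind the tRNA results can be told apart. MT-TN (asparagine, chrM:5657-5729, minus strand), MT-TC (cysteine, chrM:5761-5826, minus) and MT-TT (threonine, chrM:15888-15953, plus) had the highest fold changes. The lowest belonged to MT-TV (valine, chrM:1602-1670, plus), MT-TM (methionine, chrM:4402-4469, plus) and MT-TG (glycine, chrM:9991-10058, plus). MT-TP (proline, chrM:15956-16023, minus) was, with MT-TC, the tRNA with the highest mean count.
MT-TN: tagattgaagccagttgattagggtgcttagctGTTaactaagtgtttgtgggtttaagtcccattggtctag
MT-TC: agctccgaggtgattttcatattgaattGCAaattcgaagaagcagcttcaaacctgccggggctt
MT-TT: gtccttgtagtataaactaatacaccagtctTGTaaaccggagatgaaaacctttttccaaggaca
MT-TV: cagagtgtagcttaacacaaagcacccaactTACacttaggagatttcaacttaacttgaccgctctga
MT-TM: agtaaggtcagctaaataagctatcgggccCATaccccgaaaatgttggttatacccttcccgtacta
MT-TG: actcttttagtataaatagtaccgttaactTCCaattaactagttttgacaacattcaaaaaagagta
MT-TP: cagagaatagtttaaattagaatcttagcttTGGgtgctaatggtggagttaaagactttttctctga

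The libraries held 77759122 to 98616465 counts each. Markers of prostate luminal epithelium (KLK3, KLK2, HOXB13, FOLH1, TMPRSS2, KRT8, KRT18 and EPCAM) were expressed in all 6 libraries, but at different levels in each line. KLK3 stood at 1161 to 1238 CPM (counts scaled to 1000000 per TMM-adjusted library) in parental and at 134 to 151 CPM in resistant cells, KLK2 at 372 to 386 and 86.6 to 104 CPM, and KRT8 at 380 to 418 and 797 to 1025 CPM. TMPRSS2 was the lowest of the list in parental cells, at 78.96 to 89.3 CPM. Among the markers listed for other cell types, KRT5 and TP63 (basal cells), PTPRC and CD3E (leukocytes), and CDH5 and PECAM1 (endothelium) were at or near 0. They reached no more than 0.0504 CPM in any library. Other markers of these types were VWF (endothelium) at 3.91 to 6.10 CPM and KRT14 (basal cells) at 0.433 to 1.71 CPM, both counted in every library. CD68 (leukocytes) reached at most 0.151 CPM and had no count in LNCaP-enzaR replicate 2. Of the fibroblast markers, DCN stayed at or below 0.226 CPM, COL1A1 stood at 12.4 to 15.1 CPM in parental and 4.03 to 4.80 CPM in resistant cells, PDGFRB at 0.605 to 0.681 and 1.41 to 1.99 CPM, and LUM at 0.324 to 0.598 and 1.24 to 1.71 CPM. The part of these differences in the results was not tested. LNCaP-enzaR replicate 1 stood apart from the other resistant libraries: the chi-square statistic of its counts against them was 39.8 and 31.4 per degree of freedom, compared with 7.42 between replicates 2 and 3 and 5.88 to 9.82 among parental libraries. Calls that changed without it are named below.

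Transcripts of the mitochondrial genome took 6.72%, 7.06% and 6.83% of the counts in the parental libraries and 14.9%, 15.5% and 14.7% in the LNCaP-enzaR libraries. The groups did not overlap. The 2 rRNAs went from 2.28% ± 0.062 to 4.87% ± 0.072 of all counts, the 13 mRNAs from 4.58% ± 0.114 to 10.2% ± 0.348, and the 22 tRNAs from 0.0149% ± 0.00065 to 0.0377% ± 0.0032 (SD, n = 3 each). Of the 10 genes with the highest counts in each library, 6 were mitochondrial in every parental and 8 in every resistant library. As shares of bulk RNA these values do not tell whether a cell held more mitochondrial RNA or less of other RNA.

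By edgeR's quasi-likelihood test across all genes, 32 of the 37 genes were called higher in LNCaP-enzaR and 0 lower (Benjamini-Hochberg adjusted p no higher than 0.05, fold no lower than 1.5). Among the 19711 genes tested, 23.3% were called higher and 19.5% lower, which together is 42.7%. The calls covered 13 of 13 mRNAs, 2 of 2 rRNAs and 17 of 22 tRNAs. Without the fold limit the number of mitochondrial genes past the adjusted p was also 32, beside 66.3% of all genes. MT-TV, the 1 gene with a negative fold change, did not pass. The median log2 fold change was 1.10 over the 37 genes, 1.24 over the mRNAs (0.97 to 1.48) and 0.96 over the tRNAs (−0.40 to 2.73), compared with 0.01 over all genes tested. Every resistant library lay above every parental library for 32 genes and below for 1, and 4 genes overlapped. Of all genes, 35.6% lay above and 35% below, or 70.6% in either direction. All 37 genes passed the filter on low counts, but 7 tRNAs (MT-TF, MT-TW, MT-TA, MT-TK, MT-TS2, MT-TL2 and MT-TT) were under its limit of 0.111 CPM in at least 1 parental library and passed through the resistant libraries. Of these 7, MT-TF, MT-TK, MT-TS2 and MT-TT were among the calls.

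**Figure D1:**
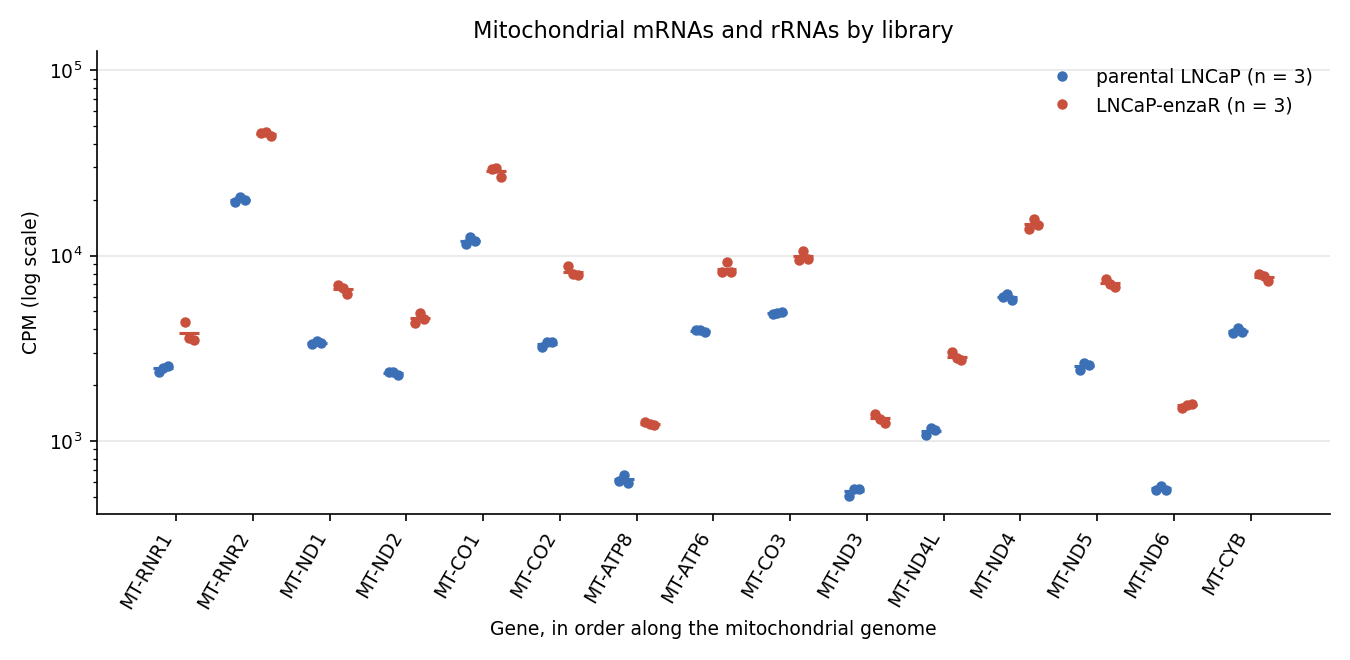
Level of the 2 mitochondrial rRNAs and 13 mRNAs in each library. The vertical axis is CPM on a log scale, genes run in map order, blue points are parental LNCaP and red points LNCaP-enzaR (n = 3 each), and short bars are means. For every gene the 3 resistant libraries lie above the 3 parental ones, from MT-RNR2 at 19454 to 46216 CPM down to MT-ND3, which starts at 507 CPM.

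The rRNAs form the core of the mitochondrial ribosome and lie next to each other on the same precursor, separated by MT-TV. MT-RNR2 (16S rRNA, ENSG00000210082.2, chrM:1671-3229) stood at 19454, 20705 and 20022 CPM in parental cells and at 45997, 46216 and 44140 CPM in LNCaP-enzaR, a log2 fold change of 1.18 (SE 0.050). It was the most abundant gene of the table in both lines. MT-RNR1 (12S rRNA, ENSG00000211459.2, chrM:648-1601) stood at 2355, 2484 and 2554 CPM and at 4408, 3600 and 3494 CPM, a log2 fold change of 0.64 (SE 0.077). The groups were separate for both rRNAs, but the resistant libraries spread more for MT-RNR1, with replicate 1 the highest. Without that library its log2 fold change was 0.53, under the 1.5-fold limit.

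MT-RNR1 therefore gained less than MT-RNR2. Its count was 12.1%, 12% and 12.8% of that of MT-RNR2 in the parental libraries and 9.58%, 7.79% and 7.91% in the resistant ones. Every resistant library had the lower ratio, and the log2 ratio differed by −0.55 (two-sided exact permutation test, p = 0.10, 0.1125 adjusted over 9 ratios and shares). With 3 libraries against 3 the smallest p possible is 0.10, so none of these 9 comparisons could pass a limit of 0.05. The difference was −0.65 to −0.50 when each library was left out in turn. How well poly(A) selection retained each rRNA was not tested.

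Complex I, the NADH dehydrogenase, receives 7 subunits from the mitochondrial genome, and its genes held the widest range of changes among the mRNAs. MT-ND5 (chrM:12337-14148), a proton-pumping subunit at the tip of the membrane arm, went from 2422, 2650 and 2564 CPM to 7476, 7033 and 6797 CPM, a log2 fold change of 1.48 (SE 0.056). MT-ND6 (chrM:14149-14673), the only mRNA coded on the light strand, went from 547, 575 and 547 CPM to 1504, 1573 and 1589 CPM, also 1.48 (SE 0.052). These were the highest fold changes of any mRNA, and both groups of libraries were tight and far apart. The other end of the range was MT-ND1 (chrM:3307-4262), part of the quinone-binding site, at 3345, 3449 and 3368 CPM against 6985, 6707 and 6190 CPM (0.97, SE 0.055). Next to it in size was MT-ND2, a further membrane-arm subunit, at 2349, 2364 and 2265 CPM against 4357, 4932 and 4529 CPM (0.99, SE 0.056). Both genes lie in the first part of the map, and the groups did not overlap at folds of 1.96 and 1.98.

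The remaining complex I genes lay between these and sit side by side on the map. MT-ND4, which is read from the same mRNA as MT-ND4L, stood at 5972, 6203 and 5776 CPM in parental cells and at 13917, 15807 and 14606 CPM in LNCaP-enzaR (1.30, SE 0.058). MT-ND4L stood at 1081, 1172 and 1142 CPM and at 3024, 2799 and 2743 CPM (1.34, SE 0.056). MT-ND4L reached 18.9% ± 0.84 of the MT-ND4 count in parental cells and 19.4% ± 2.08 in LNCaP-enzaR, a difference smaller than the spread. MT-ND3, a small subunit near the quinone site, went from 507, 552 and 554 CPM to 1402, 1319 and 1253 CPM (1.30, SE 0.059). All resistant libraries were above all parental libraries for these genes. Together the 7 genes made up 36.7%, 36.4% and 36.1% of mitochondrial mRNA counts in parental cells and 37.4%, 37.7% and 38.3% in LNCaP-enzaR, a difference of 1.39 percentage points (exact permutation p = 0.10, adjusted 0.1125).

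Complex III has 1 mitochondrial subunit, cytochrome b. Its gene MT-CYB (chrM:14747-15887) went from 3802, 4051 and 3879 CPM to 7913, 7750 and 7309 CPM, a log2 fold change of 0.97 (SE 0.052). Although every resistant library was higher in CPM, the share of MT-CYB in mitochondrial mRNA was lower in every resistant library. That share was 8.6%, 8.68% and 8.64% in parental cells and 7.65%, 7.28% and 7.42% in LNCaP-enzaR, a difference of −1.19 percentage points (exact permutation p = 0.10, adjusted 0.1125).

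Complex IV, cytochrome c oxidase, receives its 3 core subunits. MT-CO1, with the heme and copper centre where oxygen is reduced, stood at 11525, 12654 and 12017 CPM in parental cells and at 29210, 29661 and 26684 CPM in LNCaP-enzaR (log2 fold change 1.24, SE 0.058). MT-CO2, which takes electrons from cytochrome c, went from 3224, 3426 and 3406 CPM to 8756, 7934 and 7878 CPM (1.29, SE 0.056). MT-CO3 changed less, from 4831, 4902 and 4938 CPM to 9523, 10544 and 9624 CPM (1.02, SE 0.053). None of the 3 genes overlapped between the lines. Their joint share of mitochondrial mRNA overlapped, at 44.9% ± 0.516 and 45.3% ± 0.542 (SD, n = 3 each, difference 0.44 percentage points, exact permutation p = 0.5, adjusted 0.5). This complex IV share of mitochondrial mRNA depended on single libraries. The difference was 0.148 points without LNCaP-enzaR replicate 1 and 0.162 without parental replicate 1, compared with 0.669 without parental replicate 3 and 0.681 without LNCaP-enzaR replicate 3.

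Complex V, the ATP synthase, receives subunits of the proton channel and its stalk. MT-ATP6 went from 3971, 3986 and 3872 CPM to 8116, 9203 and 8121 CPM (log2 fold change 1.10, SE 0.058). MT-ATP8, whose reading frame overlaps it as shown above, went from 610, 658 and 593 CPM to 1264, 1235 and 1214 CPM (1.00, SE 0.054). The groups were separate for both. The MT-ATP8 count was 15.7% ± 0.673 of that of MT-ATP6 in parental cells and 14.6% ± 1.11 in LNCaP-enzaR, and the groups overlapped. The complex V share of mitochondrial mRNA was 10.1% ± 0.242 and 9.45% ± 0.368, a difference of −0.64 percentage points with no overlap (exact permutation p = 0.10, adjusted 0.1125). With counts divided by gene length the difference was −1.23 points.

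The order of the genes by level was nearly the same in both lines. Per length, as mean CPM per kilobase of gene, MT-RNR2 led at 12868 ± 402 in parental and 29154 ± 731 in resistant cells, followed by MT-CO1 with 7824 ± 367 and 18494 ± 1040. MT-CO3, MT-ATP6, MT-CO2, MT-ND4, MT-ND4L, MT-ND1, MT-CYB and MT-ATP8 came next in both lines. In parental cells the neighbours MT-ND1 and MT-CYB overlapped and all other neighbours were separate. In LNCaP-enzaR, MT-CO3, MT-ATP6 and MT-CO2 overlapped in sequence, as did MT-ND4 with MT-ND4L, MT-ND1 with MT-CYB, and the run of MT-ND2, MT-RNR1, MT-ND5 and MT-ND3. Of the 15 genes, 11 kept their place. MT-RNR1 changed places with MT-ND2, and MT-ND3 with MT-ND5, while MT-ND6 was the lowest in both lines, at 1060 ± 31.0 and 2963 ± 86.5 CPM per kilobase.

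**Figure D2:**
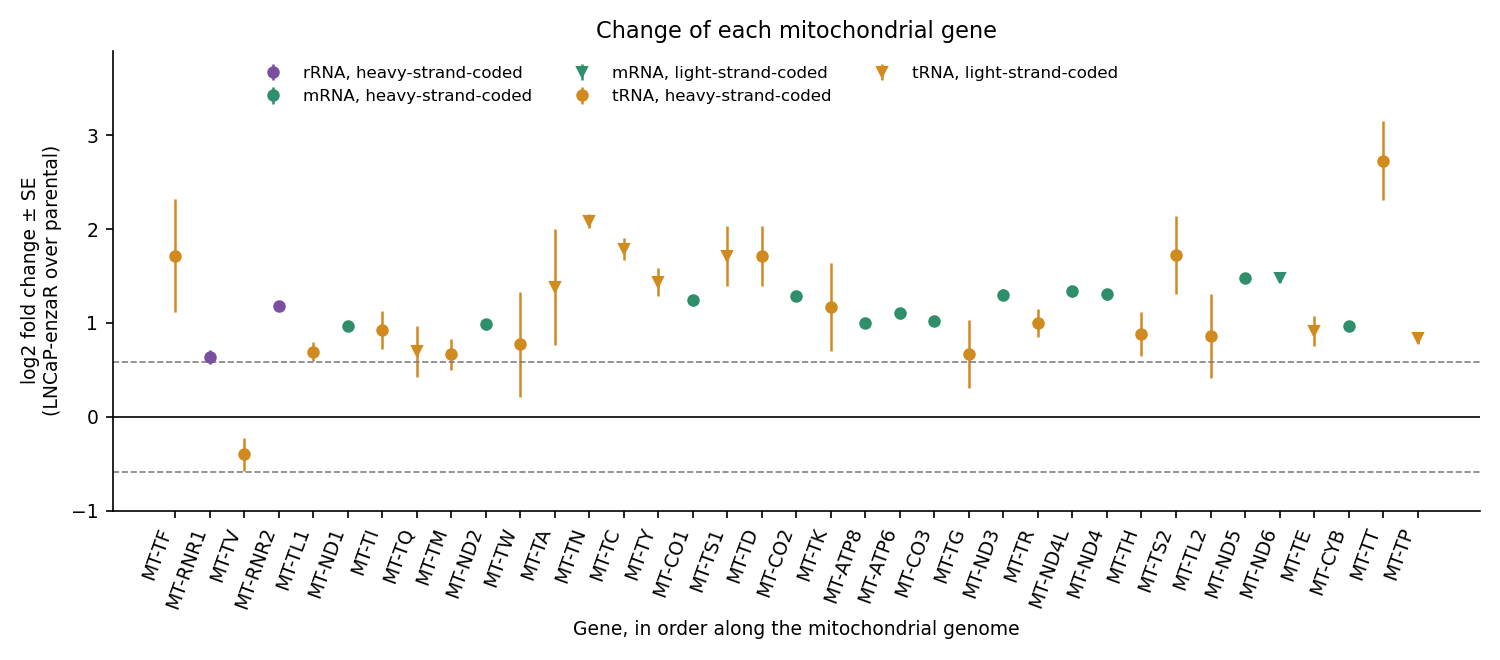
Change of each of the 37 mitochondrial genes, in map order. Points are log2 fold changes of LNCaP-enzaR over parental LNCaP with their SE, circles are heavy-strand-coded and triangles light-strand-coded genes, colour is the RNA class, and dashed lines mark the 1.5-fold limit. The mRNAs lie between 0.97 and 1.48, whereas the tRNAs reach from −0.40 for MT-TV to 2.73 for MT-TT with much larger errors for genes of few counts.

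The tRNAs decode the codons of the 13 mRNAs. They held 0.217% ± 0.00511 of the mitochondrial counts in the parental and 0.250% ± 0.0186 in the resistant line, and a small set carried most of these reads. MT-TC (ENSG00000210140.1) was counted 3231, 3592 and 2696 times in the parental libraries and 8377, 12589 and 13441 times in the resistant libraries, or 36.2 ± 2.83 and 125 ± 24.5 CPM (log2 fold change 1.79, SE 0.116). MT-TN (ENSG00000210135.1) was counted 1890, 2241 and 1890 times and 8513, 8720 and 9458 times, or 23.0 ± 2.29 and 97.6 ± 1.95 CPM (2.08, SE 0.074). MT-TP was counted 4962, 5084 and 4797 times and 9107, 9155 and 9491 times, or 56.9 ± 3.82 and 102 ± 5.25 CPM (0.84, SE 0.066). All 3 are light-strand-coded and had separate groups. MT-TP led in parental cells and MT-TC in 2 of 3 resistant libraries. LNCaP-enzaR replicate 1 held fewer MT-TC counts than the other resistant libraries, and MT-TN there was 102% of MT-TC, compared with 69.3% and 70.4%.

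MT-TT had the highest fitted fold change of the 37 genes on very few reads. It was counted 12, 8 and 12 times in parental cells and 87, 89 and 45 times in LNCaP-enzaR (log2 fold change 2.73, SE 0.420). This tRNA reached the filter limit on low counts in 2 parental libraries and in 3 resistant ones. It thus passed through the resistant libraries, where it was high. As a description only, the groups were separate, and the fold change was 2.53 to 3.03 when each library was left out.

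MT-TV lies between the rRNAs and was the only gene with a lower value in every resistant library. It was counted 215, 188 and 187 times in parental cells and 151, 179 and 135 times in LNCaP-enzaR, or 2.26 ± 0.167 and 1.71 ± 0.335 CPM. Its log2 fold change of −0.40 (SE 0.176) did not pass the threshold, and over the alternatives it was −0.54 to −0.25. In human mitoribosomes this tRNA is a structural part of the large subunit, in the position that a 5S rRNA takes elsewhere.

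The other low members were MT-TM and MT-TG. MT-TM, used both to start and to extend proteins, was counted 108, 121 and 110 times in parental cells and 172, 185 and 207 times in LNCaP-enzaR (0.67, SE 0.165), with separate groups. MT-TG was counted 51, 98 and 28 times and 58, 112 and 123 times (0.67, SE 0.361), and its groups overlapped. It was not called, but it passed the threshold without parental replicate 2 (1.21) or LNCaP-enzaR replicate 1 (0.92).

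Of the remaining tRNAs, MT-TL1, which lies directly behind MT-RNR2, stood at 16.1 ± 1.31 and 26.1 ± 3.59 CPM (0.69, SE 0.098), and MT-TY, in the light-strand cluster with MT-TN and MT-TC, at 3.29 ± 0.889 and 8.95 ± 0.419 CPM (1.44, SE 0.151). MT-TI, MT-TR, MT-TH, MT-TE, MT-TS1, MT-TD, MT-TS2, MT-TF, MT-TQ and MT-TK were called at log2 fold changes of 0.70 to 1.72, all with at most 429 counts in any library. MT-TW, MT-TA and MT-TL2 were not called (0.77 to 1.38), with 2 to 51 counts. The groups of MT-TQ and MT-TK overlapped although both were called, and each lost its call in 6 of the alternatives. MT-TF lost its call with the replicate block and without parental replicate 1 or LNCaP-enzaR replicate 1, where its log2 fold change was 1.15 to 1.65. MT-TA gained one without parental replicate 2 (1.95), but this tRNA had passed the filter on low counts through the resistant libraries.

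**Figure D3:**
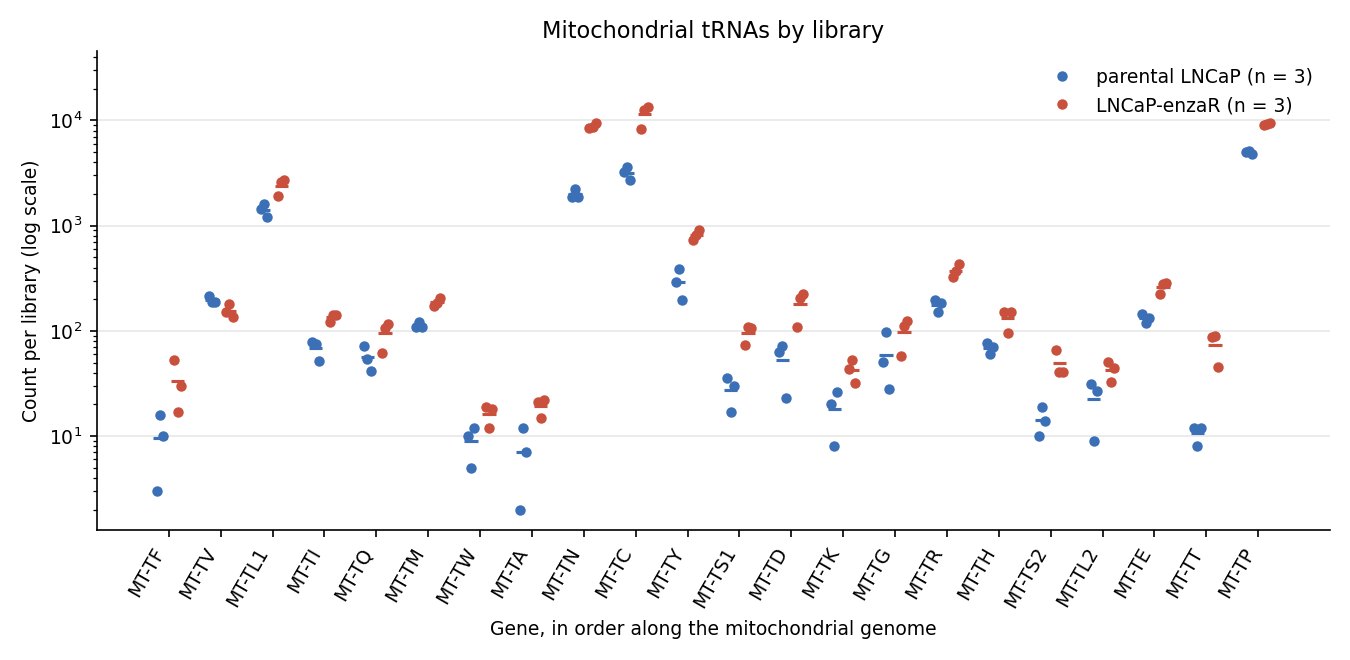
Count of each of the 22 mitochondrial tRNAs in each library, in map order. The vertical axis is the raw count on a log scale, blue points are parental LNCaP and red points LNCaP-enzaR (n = 3 each), and short bars are means. MT-TN, MT-TC, MT-TP and MT-TL1 stand highest, from 1201 counts upwards, and MT-TV is the tRNA whose resistant libraries all lie below its parental ones.

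By class, the tRNAs made up 0.326% ± 0.00857 of the mRNA count in parental cells and 0.371% ± 0.0263 in LNCaP-enzaR (log2 difference 0.18, exact permutation p = 0.10, adjusted 0.1125). This rested on the few abundant tRNAs, because the median over all 22 tRNAs against the median mRNA gave −0.16. The rRNAs made up 49.4%, 49.7% and 50.3% of the mRNA count in parental cells and 48.7%, 46.8% and 48.3% in LNCaP-enzaR, lower in every resistant library by a log2 difference of −0.05 (exact permutation p = 0.10, adjusted 0.1125). For this rRNA to mRNA ratio the member medians gave −0.18. As sums the classes stood at 33.2% ± 0.199 and 32.3% ± 0.476 of mitochondrial counts for rRNA and 66.6% ± 0.204 and 67.4% ± 0.465 for mRNA.

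Genes were also compared by the strand they are coded on, the heavy strand for 28 genes and the light strand for MT-ND6 and 8 tRNAs. The light-strand tRNAs summed to 4.60, 4.72 and 5.01 times the heavy-strand tRNAs in parental cells and to 8.17, 7.73 and 7.86 times in LNCaP-enzaR, a log2 difference of 0.73 (exact permutation p = 0.10, adjusted 0.1125). MT-TP, MT-TC and MT-TN held most of the light-strand counts, with log2 fold changes of 0.84, 1.79 and 2.08, and with the median of the members in place of the sum the difference was 0.04. MT-ND6 made up 1.25%, 1.25% and 1.23% of the other 12 mRNAs in parental cells and 1.48%, 1.5% and 1.64% in LNCaP-enzaR (log2 difference 0.30, exact permutation p = 0.10, adjusted 0.1125). Relative to MT-ND5, its neighbour on the opposite strand, MT-ND6 differed by less than the spread, at 21.9% ± 0.635 and 22% ± 1.67. Whether the counts separate strands is not stated. Of 322 genes that lie wholly in exons of an expressed gene on the opposite strand, 9 had any count. Of 453 such genes on the same strand, 15 had any. Genes that are not expressed have no count under either setting, so these numbers cannot decide it. Strand here means that of the annotated gene. With the setting unknown, reads of MT-ND6 cannot be told apart from antisense RNA, including an extended 3′ end of MT-ND5 mRNA.

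To ask which genes departed from the common change, the edgeR test was repeated with the mitochondrial total of each library as its size, so that the known difference in the total cancelled. At an adjusted p of at most 0.05, 7 of the 37 genes were above the pool, 10 below and 20 not distinguished, beside 83.8% of all genes, which is high because nuclear genes are measured against a total that differed between lines. Above the pool were MT-TN (log2 change 0.92, adjusted p = 2.74e-13), MT-TC (0.62, 9.08e-07), MT-ND6 (0.32, 2.52e-05), MT-ND5 (0.31, 9.02e-06), MT-ND4L (0.17, 0.0122) and MT-ND4 (0.14, 0.0315). The other gene above was MT-TT (1.56), given without its p because this tRNA had passed the filter on low counts through the resistant libraries, where it was high. The call of MT-ND4 was lost in 7 of the alternatives, and that of MT-ND4L without parental replicate 1. MT-ND4L, MT-ND4 and MT-ND5 follow each other on the map, and MT-ND6 adjoins MT-ND5 on the other strand.

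Below the pool were MT-TV (−1.57, adjusted p = 5.72e-10), MT-RNR1 (−0.53, 4.33e-09), MT-TM (−0.50, 0.0188), MT-TL1 (−0.47, 3.32e-05) and MT-TP (−0.33, 0.000152). With smaller changes, MT-ND1 (−0.20, adjusted p = 0.00231), MT-CYB (−0.20, 0.00215), MT-ND2 (−0.18, 0.00703), MT-ATP8 (−0.17, 0.0143) and MT-CO3 (−0.15, 0.0182) were also below. MT-TV, MT-RNR1, MT-TL1, MT-ND1, MT-TM and MT-ND2 all lie in the first part of the map, between bases 648 and 5511. Of the genes in that stretch, MT-RNR2 was not distinguished from the pool (0.01, adjusted p = 0.819), nor were MT-TI and MT-TQ. The calls of MT-TM, MT-ND2, MT-ATP8 and MT-CO3 were lost when certain libraries were left out: parental replicate 3 or LNCaP-enzaR replicate 1 for MT-TM, parental replicate 1 for MT-ND2, parental replicate 1 or 2 for MT-ATP8, and parental replicate 1 or 3 for MT-CO3. Further genes passed when 1 library was left out: MT-TY without parental replicate 2 (0.47) or LNCaP-enzaR replicate 1 (0.32), MT-TD without either of these (0.79 each) or parental replicate 1 (0.69), MT-CO2 (0.16) and MT-ND3 (0.16) without LNCaP-enzaR replicate 2, and MT-TG without parental replicate 3 (−0.77). With a minimum of 1.5-fold relative to the pool, 4 genes were left, MT-TN, MT-TC, MT-TV and MT-TT, the last with the same reservation.

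**Figure D4:**
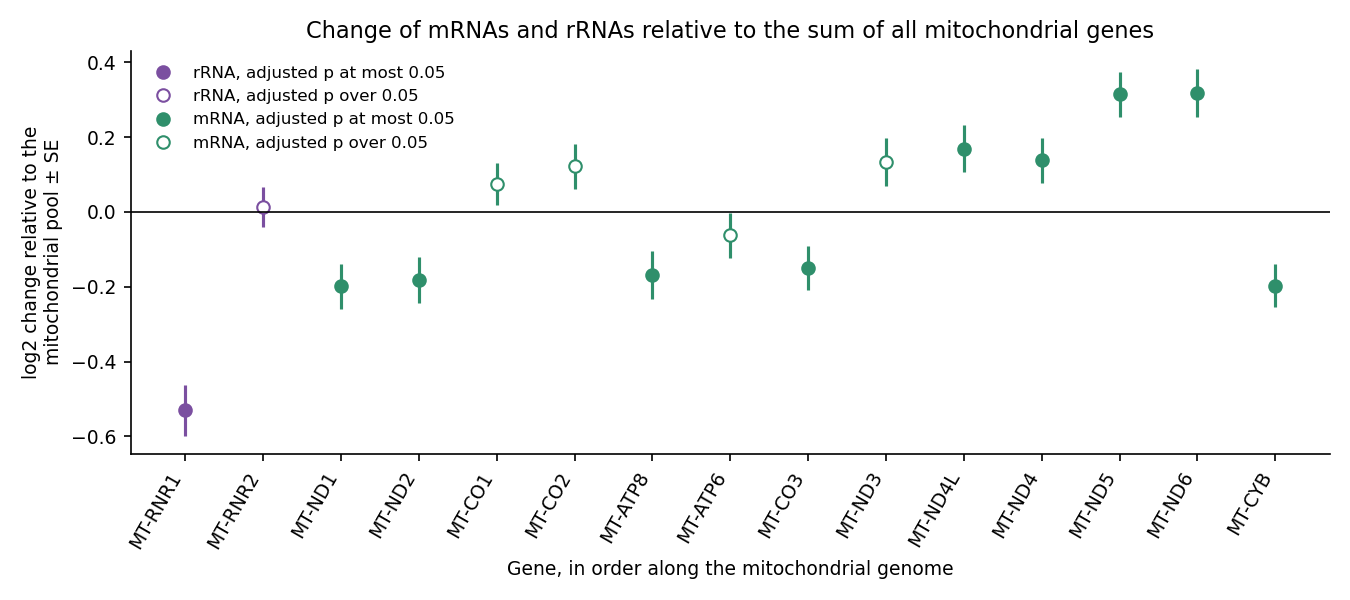
Change of the 13 mRNAs and 2 rRNAs relative to the sum of all mitochondrial genes, in map order. Points are log2 changes with their SE, filled where the adjusted p was at most 0.05. MT-RNR1 at −0.53 is the lowest, MT-ND1 and MT-ND2 lie below 0, MT-ND4L, MT-ND4, MT-ND5 and MT-ND6 lie above it, and MT-CYB returns to −0.20.

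Across the 15 mRNA and rRNA genes, Spearman's rho of the log2 fold change was 0.58 with the start position on the map, −0.15 with the mean CPM per kilobase and −0.06 with gene length. These are descriptions across genes that share precursors and libraries, and are not independent observations. MT-CYB, the last gene of the series, went against the order by position. The 3′ ends of the mRNAs were read from the reference. In 6 of 13 mRNAs (MT-ND1, MT-ND2, MT-CO3, MT-ND3, MT-ND4 and MT-CYB) the gene ends on an incomplete stop codon that the added poly(A) tail completes. Of these, MT-ND1, MT-ND2, MT-CO3 and MT-CYB were below the pool, MT-ND4 above it and MT-ND3 not distinguished. Of the mRNAs whose gene ends on a full codon, MT-ATP8 was below the pool and MT-ND4L, MT-ND5 and MT-ND6 were above it. MT-CO1, MT-CO2 and MT-ATP6 were not distinguished. A link between the 3′ ends and the changes was not tested.

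The nuclear partners of the mitochondrial subunits were then counted in the same test. Of 78 nuclear genes for subunits of complexes I to V, 1 was higher, 4 were lower and 73 were not called, with a median log2 fold change of −0.07, beside 23.3% higher and 19.5% lower among all genes. By adjusted p without the fold limit, 41 of the 78 passed, 11 higher and 30 lower, where 66.3% of all genes passed in either direction. Higher was NDUFA3, an accessory subunit of complex I, from 32.2 ± 1.00 to 52.7 ± 9.04 CPM (0.71, SE 0.097, edgeR adjusted p = 1.48e-05), which fell short of the fold limit without LNCaP-enzaR replicate 1 (0.57). The lower genes were NDUFB3, a further accessory subunit of complex I (−0.69, SE 0.072), SDHD, a membrane anchor of complex II (−0.96, SE 0.088), ATP5MC3, which encodes the ring subunit of the ATP synthase (−0.87, SE 0.067), and NDUFV2, a complex I iron-sulfur subunit that was low in both lines (1.23 ± 0.238 and 0.556 ± 0.0926 CPM). For NDUFV2, 28.4% of the exonic bases overlapped another gene.

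By complex, the nuclear medians were −0.09 for complex I (37 genes), −0.07 for complex II (4 genes), −0.08 for complex III (9 genes), −0.07 for complex IV (11 genes) and −0.07 for complex V (17 genes). The mitochondrial medians were 1.30, 0.97, 1.24 and 1.05 for complexes I, III, IV and V, and complex II has no mitochondrial subunit. In complex III the nuclear genes reached from UQCRFS1, the Rieske iron-sulfur protein (−0.44, SE 0.063), to UQCRQ (0.43, SE 0.088), and in complex IV from COX8A (−0.46, SE 0.075) to COX6C (0.56, SE 0.073), all short of the fold limit. COX6C passed it without LNCaP-enzaR replicate 2 (0.62) or 3 (0.60). For COX8A, 35.4% of the exonic bases overlapped another gene. The highest nuclear value, 0.71, was below the lowest mitochondrial mRNA, 0.97. The difference between the genomes was not tested as such.

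**Figure D5:**
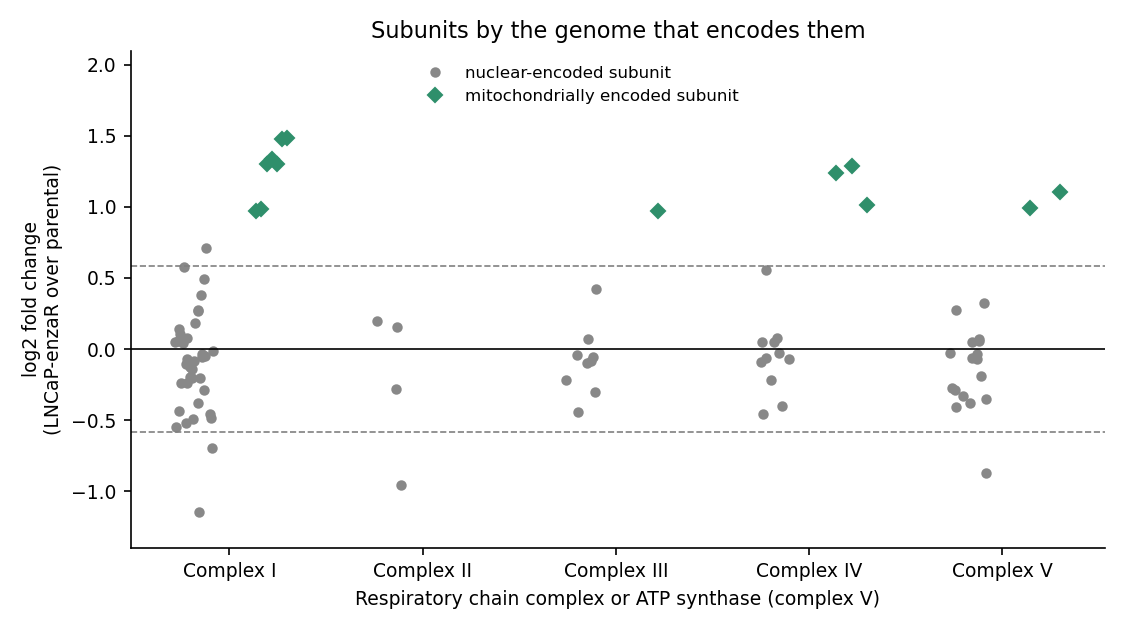
Subunits of respiratory complexes I to IV and of the ATP synthase (complex V) by the genome that encodes them. Points are log2 fold changes of LNCaP-enzaR over parental LNCaP, grey for 78 nuclear genes and green for 13 mitochondrial genes, and dashed lines mark the 1.5-fold limit. The green points lie at 0.97 or above and all but 5 grey points lie between the dashed lines.

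Nuclear genes for the expression of mitochondrial DNA moved in both directions. Of 51 genes listed, 2 were higher, 12 lower and 37 not called, with a median log2 fold change of −0.24, beside 23.3% and 19.5% of all genes. Among 9 transcription factors and polymerase components, TFAM, which packages mitochondrial DNA and helps to start its transcription, went from 184 ± 10.7 to 116 ± 15.5 CPM (−0.67, SE 0.084, edgeR adjusted p = 6.12e-06). The TFAM log2 fold change without LNCaP-enzaR replicate 1 was −0.56, and with upper-quartile scaling −0.571, both short of the fold limit. MTERF4, which acts in assembly of the mitochondrial ribosome, went from 132 ± 1.94 to 44.6 ± 0.479 CPM (−1.57, SE 0.054, adjusted p = 7.21e-12), with 51.0% of its exonic bases in another gene. The other 7 genes of that list were not called.

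Of 11 genes for replication and nucleotide supply, the higher ones were TK2, the mitochondrial thymidine kinase, from 31.9 ± 1.15 to 78 ± 1.74 CPM (1.29, SE 0.059, edgeR adjusted p = 1.41e-10), and RRM2B, a ribonucleotide reductase subunit (0.89, SE 0.078). MGME1, an exonuclease of mitochondrial DNA maintenance, went from 70.6 ± 2.59 to 28.3 ± 2.59 CPM (−1.32, SE 0.073, adjusted p = 9.14e-10), and PRIMPOL, a primase and polymerase, was lower as well (−0.81, SE 0.098). Of the exonic bases of TK2 and PRIMPOL, 20.1% and 18.6% lay in exons of another gene.

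Of 12 genes for RNA processing 2 were lower, of 13 for RNA stability and decay 1 was lower, and none of either list was higher, beside 19.5% lower and 23.3% higher among all genes. The medians were −0.04 and −0.33. By adjusted p without the fold limit, 5 processing genes were lower and 2 higher, and 8 stability genes were lower and 4 higher, where 66.3% of all genes passed in either direction. PUS1, a pseudouridine synthase, went from 36.1 ± 1.61 to 17 ± 2.80 CPM (−1.09, SE 0.098, edgeR adjusted p = 2.11e-07), and TRIT1, which modifies the base next to the anticodon of some tRNAs, from 37 ± 1.28 to 23 ± 1.35 CPM (−0.69, SE 0.068, adjusted p = 5.73e-07). FASTKD1, an RNA-binding protein of mitochondria, went from 33.1 ± 1.60 to 14.8 ± 1.26 CPM (−1.16, SE 0.078, adjusted p = 8.48e-09). FASTKD2 was close to the fold limit (−0.56, SE 0.063), and passed it without LNCaP-enzaR replicate 2 (−0.59).

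Of 6 regulators of mitochondrial biogenesis, 5 were lower, where 19.5% of all genes were called lower. These were the coactivators PPARGC1B, from 20.3 ± 1.10 to 7.53 ± 0.309 CPM (−1.43, SE 0.080, edgeR adjusted p = 1.09e-09), PPRC1, from 87.4 ± 1.26 to 49.0 ± 5.29 CPM (−0.84, SE 0.073, adjusted p = 1.34e-07), and PPARGC1A, which was under 1 CPM in both lines (−1.42, SE 0.303). The transcription factors NRF1 (−0.78, SE 0.087) and GABPA (−0.71, SE 0.083) completed the 5.

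The nuclear genome holds many inserted copies of mitochondrial genes, to which reads of the mitochondrial transcripts can align. Of 85 such genes in the table, 18 passed the filter, of which 16 were called higher and 0 lower, with a median log2 fold change of 1.34, beside 23.3% higher and 19.5% lower among all genes. Among these 18, MTND4LP30, MTCYBP18 and MTND4P24 were under the filter limit of 0.111 CPM in at least 1 parental library. They passed with the help of resistant libraries, and MTND4LP30 was among the calls. MTATP6P1 (chromosome 1, 633696 to 634376), the most abundant, matched MT-ATP6 over its whole length with 98.5% identity, 10 differences and a longest identical run of 141 bases. It stood at 224 ± 8.31 and 560 ± 31.0 CPM (1.32, SE 0.057), which was 5.69% ± 0.181 of the MT-ATP6 count in parental cells and 6.63% ± 0.722 in LNCaP-enzaR. MTCO1P12 and MTND2P28, on the same stretch of chromosome 1, were 98.6% and 98.4% identical to MT-CO1 and MT-ND2 and had log2 fold changes of 1.22 (SE 0.089) and 1.59 (SE 0.168). MTRNR2L12 (95.1% identity, 1.52, SE 0.131) and MTND4P12 (95.8% identity, 1.31, SE 0.172) were counted at under 0.05% of MT-RNR2 and MT-ND4. Apart from MTATP6P1, each of these 5 copies was counted at less than 1% of its mitochondrial gene. Reads of the copies and of the mitochondrial genes cannot be told apart here, because the handling of multimapping reads is not given in the sources used here.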

How the data were processed

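Poly(A)-selected RNA of 3 parental LNCaP and 3 LNCaP-enzaR flasks was sequenced as paired-end reads. The authors trimmed reads with Cutadapt, aligned them to GRCh38 with STAR and deposited raw counts per gene from featureCounts (GENCODE release 38). Strand setting and multimapping are not stated. Groups and replicates came from sample titles. The titles call the libraries biological replicates, but nothing says that flasks differed beyond plating, so p-values measure the spread between flasks. The members and gene lists were chosen with earlier results of these data known.

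The counts were tested in R 4.3.3 by edgeR 4.0.16 (filterByExpr, TMM, robust quasi-likelihood F-test). This kept 19711 genes with 99.96% of the counts. Calls needed a Benjamini-Hochberg adjusted p no higher than 0.05 and a fold no lower than 1.5, as in the study, which named DESeq2. DESeq2 1.42.0 served as an alternative. Departures from the mitochondrial pool were tested with chromosome M totals as library sizes and no fold minimum. Ratios were tested by two-sided exact permutation over libraries (SciPy 1.17.1). The edgeR step was also run on simulated counts, whose outcome is not given here and is not used for any call. All 37 genes had the same start and end in GENCODE release 44, used with the GRCh38 sequence. Named genes were all members, tRNA values being given for the 3 highest, the 3 lowest and the 2 most abundant. Of each nuclear OXPHOS complex the highest and lowest gene above 5 CPM were named, of each expression list the 2 with the smallest p, and of the copies the 5 most abundant. Other genes were named after their values were seen. Alternatives were other scalings, filters, thresholds, a replicate block, gene-length weights, member medians, other pools and leaving out each library.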

Additional observations from a re-analysis of the deposited data

How the results depend on the processing

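The count of mitochondrial genes called was 32 and stayed at 29 to 33 under DESeq2, other scalings and filters and the replicate block, and at 30 to 32 when each library was left out. A fold of at least 2 left 20 genes. Nuclear OXPHOS subunits went from 5 calls to 8 with upper-quartile scaling, 41 by adjusted p alone and 1 at a fold of 2, and genes of mitochondrial DNA expression from 14 to 39 and 7 under the last 2 settings. By adjusted p alone, 66.3% of all genes passed. Leaving out each library gave 5 to 7 and 14 to 15 calls for these lists, 14 to 16 for nuclear copies and 14 to 18 for genes apart from the pool. The latter were 4 with a fold of at least 1.5. The difference in the mitochondrial share was 8.19 percentage points, 7.95 to 8.34 without each library and 5.60 without the rRNAs. The tRNA to mRNA difference turned from 0.18 to −0.159 with member medians. Relative to the pool, genes close to 0 changed sign. MT-RNR2 gave −0.0036 with mRNAs as the pool. When each library was left out, MT-TA gave −0.21 to 0.79, MT-TG −0.77 to 0.029 and MT-TK −0.40 to 0.45, and MT-TK gave 0.0065 with TMM within chromosome M and 0.063 with the replicate block. Negative values came without parental replicate 1 for MT-TA, and positive ones without parental replicate 2 for MT-TG and without parental replicate 1 (0.036) or 3 (0.45) or LNCaP-enzaR replicate 3 (0.19) for MT-TK. The cause of these changes was not tested, other than the smaller set that a stricter fold leaves by construction. Upper-quartile scaling moved the median of all genes from 0.01 to 0.11. Same-numbered libraries did not deviate together (correlations −0.065 to −0.00041), so the numbers do not pair them. With the replicate block 29 mitochondrial genes, 5 OXPHOS genes, 14 expression genes and 15 copies were called, and 16 genes stood apart from the pool. Depth limits the 7 tRNAs near the filter, where counting error is large.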
